A study of Mus musculus with 2 samples.

Results

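The genes for the proteins of the cytosolic ribosome were followed in a map of open chromatin of the newborn mouse thymus, the organ in which T cells mature. They were the protein-coding genes whose symbol is Rpl or Rps followed by a digit, with Rplp0, Rplp1, Rplp2, Rpsa and Fau, and without the S6 kinases, the -ps pseudogenes and the paralogs whose symbol ends in l. The rule found 82 of 21853 protein-coding genes of the GENCODE M21 annotation, and used symbols alone. Of the 82, 46 encode proteins of the large subunit and 32 proteins of the small subunit. Rps19bp1, Rpl7l1 and Rpl22l1 match the symbol without encoding a core subunit, and Rps27rt is a retrocopy of Rps27, an intron-poor copy made from its mRNA. The members lay on 20 chromosomes, 14 of them on chromosome 7 and 4 on X.

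Chromatin was probed with DNase I, which cuts DNA where it is accessible, in thymus of B6NCrl mice at postnatal day 0 with males and females pooled. The series has a single group with 2 biological replicates, which the labels trace to 1 donor and separate biosamples, and no treatment or genotype was compared. Replicate 1 had 154812 peaks of 150 bp and 135932 wider regions called hotspots, and replicate 2 had 139702 peaks and 121064 hotspots, on mm10 (GRCm38). The sources used here do not state read totals, and the depth behind each list is unknown. Of 8 thymocyte marker genes (Cd3e, Cd4, Cd8a, Cd8b1, Lck, Rag1, Rag2 and Ptcra), all 8 had a promoter peak in both replicates, as did the B cell gene Pax5, 1 of 2 erythroid markers (Gata1, not Hbb-bs) and 0 of 2 thymic epithelial markers (Foxn1 and Psmb11). A bulk peak averages over the cells of the tissue, so fewer open cells and less opening per cell cannot be told apart.

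A ribosome needs each of its proteins in about equal number, and their genes, scattered over the genome, are among the most strongly transcribed genes of growing cells. Their mRNAs typically start with a C followed by a run of pyrimidines, the terminal oligopyrimidine (TOP) motif, through which the mTOR pathway and the protein LARP1 control their translation. Most of these promoters lie in CpG islands, many lack a clear TATA box, and several of the genes carry snoRNAs, the guides of ribosomal RNA modification, in their introns.

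The promoter sequences below carry the features that the member promoters held more often than all coding promoters did. They are RefSeq promoter sequences of GRCm38.p6, cut from 120 bases before to 30 bases after the more upstream of the RefSeq and GENCODE starts, 5′ to 3′ on the gene's strand. The first 5 show motif matches in capitals: the ZBED1 palindrome (the run of 10 letters), the ETS core CCGGAAG and the YY1 word AAGATGGC. The first is Rps6 (chr4:86857383-86857532, minus strand), whose protein is the substrate of the S6 kinases, with an ETS and a ZBED1 match. Rpl10a (chr17:28328445-28328594, plus strand) holds a ZBED1 match, and Rpl26 (chr11:68901446-68901595, plus strand) a ZBED1 and an ETS match. Rps28 (chr17:33824533-33824682, minus strand) has its ZBED1 match across the start itself, and Rps27 (chr3:90213622-90213771, minus strand) has a YY1 match. In these 5 genes each marked match lay inside the strongest promoter peak of both replicates. The genes shown were chosen after their values were seen.
Rps6: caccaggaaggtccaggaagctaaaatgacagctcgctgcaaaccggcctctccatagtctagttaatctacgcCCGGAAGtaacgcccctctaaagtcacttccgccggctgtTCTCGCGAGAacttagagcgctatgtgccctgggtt
Rpl10a: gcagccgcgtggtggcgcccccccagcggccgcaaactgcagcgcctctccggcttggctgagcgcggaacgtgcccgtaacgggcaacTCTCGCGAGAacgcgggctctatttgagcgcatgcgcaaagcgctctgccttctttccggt
Rpl26: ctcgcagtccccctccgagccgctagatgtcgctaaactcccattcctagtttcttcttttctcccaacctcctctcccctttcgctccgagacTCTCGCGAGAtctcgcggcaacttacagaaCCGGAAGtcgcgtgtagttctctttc
Rps28: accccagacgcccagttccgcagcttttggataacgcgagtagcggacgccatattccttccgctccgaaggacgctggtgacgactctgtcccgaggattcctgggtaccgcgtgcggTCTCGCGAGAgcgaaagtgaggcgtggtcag
Rps27: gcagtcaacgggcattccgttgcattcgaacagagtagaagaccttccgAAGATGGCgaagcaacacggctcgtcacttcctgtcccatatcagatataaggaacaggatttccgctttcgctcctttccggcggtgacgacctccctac

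The other 3 show, in capitals, the run of C and T that holds the GENCODE main start. The RefSeq starts of Rpl31, Rps24 and Rpl4 lie 9, 35 and 12 bases farther downstream, past the end of each run. Rpl31 (chr1:39367722-39367871, plus strand) has a run of 13 bases beginning 9 bases before the GENCODE start. Rps24 (chr14:24490598-24490747, plus strand) has the longest such run among the members, 19 bases, beginning 2 bases before that start. Rpl4 (chr9:64173255-64173404, plus strand), whose protein lines the peptide exit tunnel, has a run of 14 bases beginning 6 bases before it.
Rpl31: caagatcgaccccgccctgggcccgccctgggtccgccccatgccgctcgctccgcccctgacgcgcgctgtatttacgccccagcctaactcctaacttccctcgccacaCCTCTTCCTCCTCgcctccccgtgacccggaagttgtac
Rps24: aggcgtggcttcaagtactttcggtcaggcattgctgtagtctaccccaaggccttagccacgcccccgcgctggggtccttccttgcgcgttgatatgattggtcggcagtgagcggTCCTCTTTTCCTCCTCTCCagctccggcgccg
Rpl4: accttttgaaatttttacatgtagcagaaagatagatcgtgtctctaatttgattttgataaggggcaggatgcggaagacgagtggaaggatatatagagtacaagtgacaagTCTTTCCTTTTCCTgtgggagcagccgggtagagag

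Nearly every ribosomal protein gene had open chromatin at its promoter in the newborn thymus. A promoter peak, one whose midpoint lay within 1000 bp of an annotated start of a coding transcript of the gene, was present in both replicates in 81 of 82 members (98.8%), against 62.2% of all protein-coding genes. In the single lists it was present in 81 members each, against 64.7% of all coding genes in replicate 1 and 64.1% in replicate 2. The gene with no promoter peak in either replicate was the retrocopy Rps27rt. All 46 large-subunit and all 32 small-subunit genes had one, and so did Rps19bp1, Rpl7l1 and Rpl22l1. With 1 group and 2 replicates no test applies, and genes are not replicates of a condition, so the shares describe these libraries.

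Other genes of translation and the copies of ribosomal protein genes were set beside the members. All 78 genes for mitochondrial ribosomal proteins had a promoter peak in both replicates. So did all 17 other listed protein-coding genes with TOP mRNAs, which include the elongation factor genes Eef1a1 and Eef2 and the poly(A)-binding protein gene Pabpc1. Of the 5 paralogs ending in l, Rpl36al (scores 133 and 137) and Rps27l (115 and 135) had promoter peaks in both replicates. Rpl39l and Rpl3l had only a peak of score 22 in replicate 2, and Rpl10l had none. None of 6 -ps genes that the annotation calls protein-coding had one in either replicate.

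**Figure D1:**
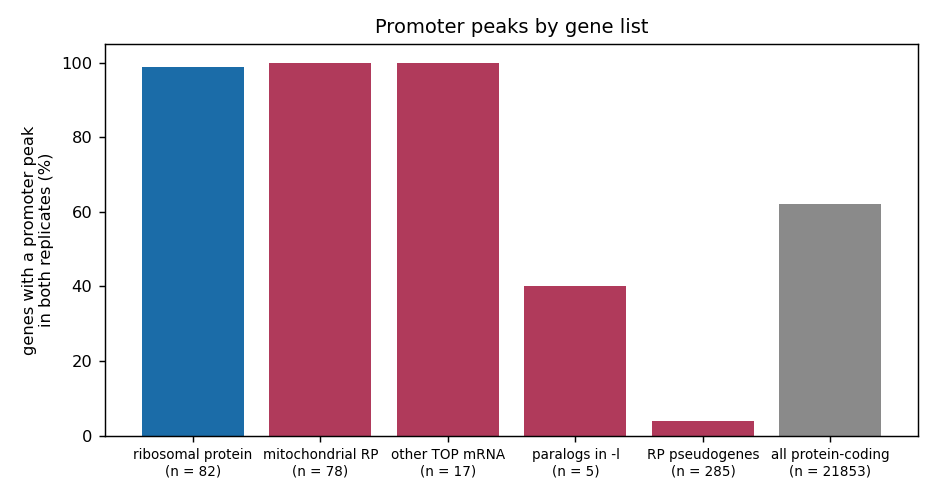
Share of genes with a promoter peak in both replicates (%), for the ribosomal protein (RP) genes at the left, 4 related lists and all protein-coding genes at the right, with the number of genes under each bar. The bars of the ribosomal protein genes (98.8%), mitochondrial ribosomal protein genes and other TOP mRNA genes stand near the top, and that of the pseudogenes is at 3.86%.

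Ribosomal protein pseudogenes, mostly silent copies made from the mRNAs, rarely had a peak near their 5′ end. No share was computed for other stretches of this size away from coding starts. Of 285 pseudogenes with a -ps symbol, 11 (3.86%) had a peak within 1000 bp of their 5′ end in both replicates. Of the 278 that lay more than 2000 bp from any coding start, 10 (3.60%) had one, with a median score of 65.5 in replicate 1 and 47 in replicate 2. The strongest was at Rpl29-ps2, with scores of 100 and 103, which lies 160 bp from a start of the coding gene Akr1e1. Next came Rpl34-ps1 (90 and 82), Rps13-ps1 (75 and 71), Rpl5-ps2 (69 and 69) and Rpl21-ps11 (69 and 59). Reads of near-identical copies can be lost or misplaced in alignment, and the sources used here do not say how the authors treated them, so peaks inside the pseudogenes and Rps27rt are uncertain.

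The promoter peaks of the ribosomal protein genes were among the strongest of each list and spanned a narrow range. The deposited score of a peak, here called its strength, runs from 1 to 150, and the sources used here do not say what it counts. In replicate 1 the strongest promoter peak of the 81 members had a lowest score of 97, a median of 127 and a highest of 142. In replicate 2 the lowest was 102, the median 132 and the highest 145. All coding genes with a promoter peak had medians of 113 and 119, and lower quartiles of 80 and 81. The median over replicates was 129.5 ± 3.54 for members and 116 ± 4.24 for all coding genes (SD, n = 2 replicates), a gap larger than the spread between replicates. Both distributions overlap, since the highest coding gene reached 148 in replicate 1 and 149 in replicate 2.

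Ranks within a list carry the same order without the unit. The rank of a peak is the percent of peaks in its own list with a lower score. The median rank was 97.6 and 97.2 for members in replicates 1 and 2, and 93.9 and 93.8 for all coding genes with a promoter peak. In both replicates 79 of 81 members (97.5%) ranked above 90, against 62.3% of coding genes with a promoter peak in both. Rpl6 missed this limit with a rank of 89.4 in replicate 2.

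**Figure D2:**
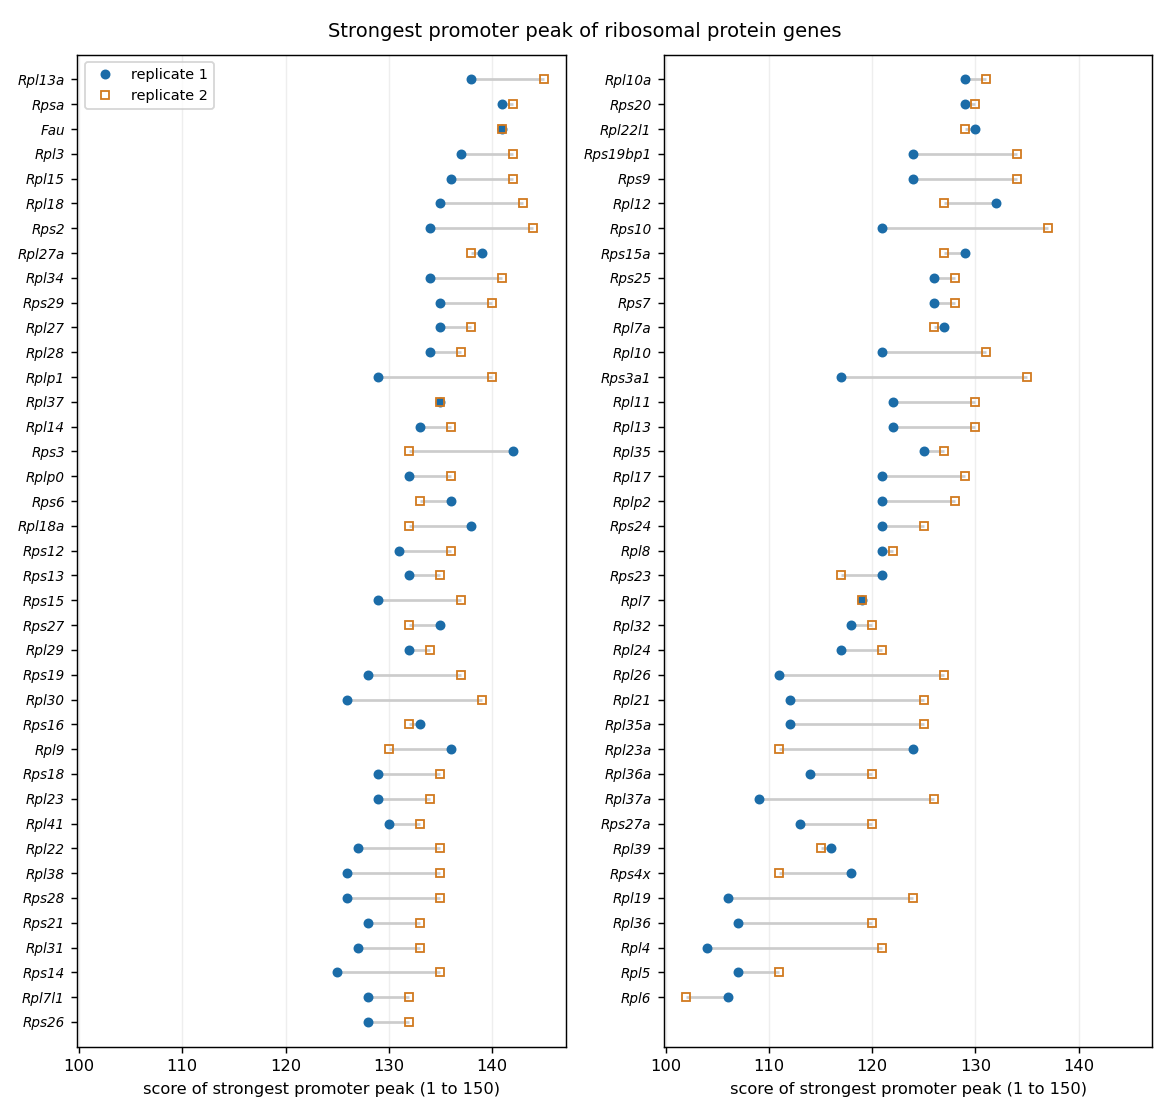
Score of the strongest promoter peak (horizontal axis, 1 to 150) of 77 ribosomal protein genes that had one, ordered by mean rank, with a filled circle for replicate 1 and an open square for replicate 2. Scores run from Rpl13a (138 and 145) at the top left to Rpl6 (106 and 102) at the bottom right, with replicate 2 mostly to the right of replicate 1.

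The strongest promoters held genes of both subunits. Rpl13a, which in human cells also serves in the interferon-induced GAIT complex, had scores of 138 and 145 in replicates 1 and 2. Rpsa, the small-subunit protein also known as the laminin receptor, had 141 and 142. Fau, which encodes a small-subunit protein as a fusion to a ubiquitin-like protein, had 141 in both. Rpl3, whose protein reaches toward the peptidyl transferase center, had 137 and 142. Rpl15 had 136 and 142, and Rpl18 had 135 and 143. Also among the 10 highest were Rps2 (134 and 144), Rpl27a (139 and 138) and Rpl34 (134 and 141). Among the 10 lowest by mean rank were Rpl6 (106 and 102), Rpl5 (107 and 111), Rpl4 (104 and 121), Rpl36 (107 and 120), Rpl19 (106 and 124) and Rps4x (118 and 111). Rpl39 (116 and 115) and Rps27a (113 and 120), whose protein is made as a fusion to ubiquitin, were also among them. The 10 highest and the 10 lowest did not overlap in either replicate, which the ordering itself fixes.

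Genes with special roles lay across the range. The stalk proteins Rplp0, Rplp1 and Rplp2 recruit elongation factors to the ribosome, and their genes had scores of 132 and 136, of 129 and 140, and of 121 and 128 in replicates 1 and 2. Rpl5 and Rpl11, whose proteins bind the ubiquitin ligase Mdm2 when ribosome assembly fails, had 107 and 111 and 122 and 130. Rpl22, which mice need for the development of alpha-beta T cells, had 127 and 135, and its paralog Rpl22l1 had 130 and 129. Rps19 and Rps14, whose loss of a copy causes anemia in humans, had 128 and 137 and 125 and 135. Rps6 had 136 and 133. Rpl30 (126 and 139), Rpl32 (118 and 120) and Rps16 (133 and 132), whose mouse promoters are classical models of this gene family, also stood within the members' range. By subunit, the medians were 126 and 130 for the large-subunit genes and 128.5 and 133.5 for the small-subunit genes. The small-subunit median was higher in both replicates, by a gap of the size of the spread between replicates.

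Scores were higher in replicate 2 for most members, as for coding genes in general. The score of the strongest peak was higher in replicate 2 for 62 of 81 members, higher in replicate 1 for 16 and equal for 3. Of 13601 coding genes with a promoter peak in both, it was higher in replicate 2 for 8904, in replicate 1 for 4204 and equal for 493. The median difference, replicate 2 minus replicate 1, was 5 for members and 4 for all coding genes with a promoter peak in both. Ranks leaned the other way by a small amount, with a median difference of -0.37 percentage points for members and 0.01 for all coding genes. Across the 81 members the scores of the replicates had a Spearman's rho of 0.758, against 0.933 across all coding genes with a promoter peak in both, a description over genes that share libraries and cover a narrower range of scores among the members. Scores differed by 10 or more in 20 members, 18 of them higher in replicate 2, and by at most 18. The same count was not made over all coding genes. Among the 5 largest differences in rank were those at Rpl23a (96.9 and 91.8 in replicates 1 and 2), Rps4x (95.3 and 91.8), Rpl19 (91.7 and 95.1) and Rpl4 (90.9 and 94.3).

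The strongest peak of a ribosomal protein gene sat close to its start. The peak midpoint lay a median of 45 bp from the nearest coding start of the gene in replicate 1 and 42 bp in replicate 2 (mean 43.5 ± 2.12 bp, SD, n = 2 replicates). All coding genes with a promoter peak had medians of 67 and 62 bp (64.5 ± 3.54 bp). It lay upstream in 65 members and downstream in 16 in replicate 1, and upstream in 58 and downstream in 23 in replicate 2. The upstream shares, 80.2% and 71.6%, compare with 71.8% and 68.9% of coding genes with a promoter peak in both, and in replicate 2 the share is near that background. The 150 bp of the peak covered an annotated coding start in 61 members (75.3%) in replicate 1 and 63 (77.8%) in replicate 2. Among all coding genes with a promoter peak the shares were 53.8% and 56.1%. Measured over all 82 members around the main start alone, peak cover was highest 50 bp upstream in replicate 1, at 82.9% of members, and at the start itself in replicate 2, at 78.0%. For all coding genes it was highest 50 bp upstream, at 39.1% and 37.5%, and for coding genes with a promoter peak in both at 61.9% and 59.6%.

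**Figure D3:**
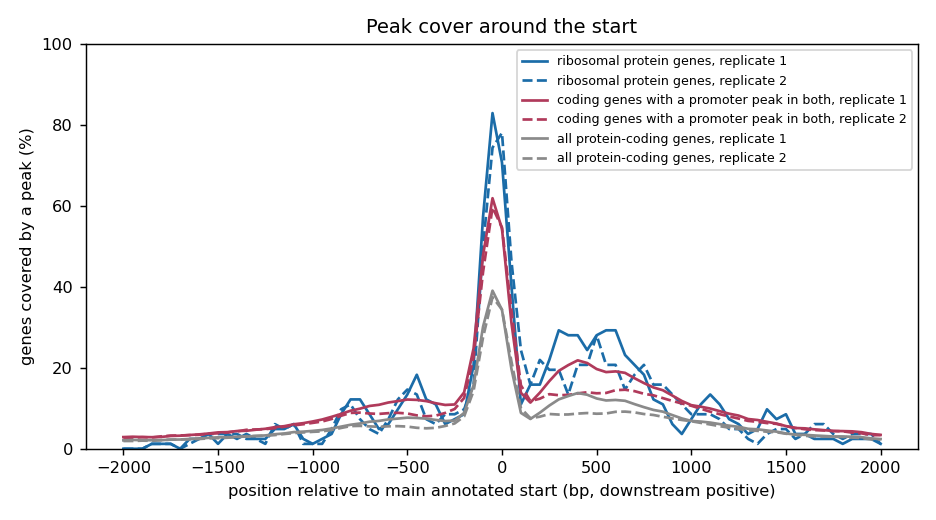
Share of genes covered by a peak (%) against position relative to the main annotated start (bp, downstream positive), for the ribosomal protein genes, for coding genes with a promoter peak in both replicates and for all protein-coding genes, with a solid line for replicate 1 and a dashed line for replicate 2. The ribosomal protein genes reach 82.9% and 78.0% near the start, above the 61.9% and 59.6% of coding genes with a promoter peak, and keep a shoulder downstream, with 29.3% in replicate 1 and 19.5% in replicate 2 at 300 bp.

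A lower shoulder of open chromatin followed inside the genes. From 200 to 600 bp downstream of the main start, 15.9% to 29.3% of members were covered by a peak in replicate 1 and 13.4% to 28.0% in replicate 2. Coding genes with a promoter peak in both had 13.9% to 21.9% and 12.4% to 14.5% over the same stretch. At single positions the members' share was as low as 13.4%, or 11 members, 350 bp downstream in replicate 2, where the other coding genes were at 13.3%. This stretch was chosen after the data were seen. Upstream of the start the members' share was above that of these coding genes at some positions and below it at others.

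The start from which distance is measured mattered for single genes. Farthest from its GENCODE start was the strongest peak of Rpl35, 433 bp downstream in both replicates (chr2:39005116-39005265, scores 125 and 127), yet the same peak lay 60 bp upstream of the RefSeq start of Rpl35 and covered it. Next was Rpl4, whose strongest peak lay 404 and 424 bp upstream (chr9:64172896-64173045, scores 104 and 121), 58 bp in replicate 1 from a start of Zwilch, a kinetochore gene on the other strand. At its own start, Rpl4 had a second peak of score 95 in replicate 1 and 99 in replicate 2, at midpoints 24 bp upstream and 36 bp downstream. The strongest peak of Rpl32 lay 64 and 264 bp upstream, that of Rpl13a 150 bp upstream in both replicates and that of Rpl37 134 bp upstream in both. A RefSeq promoter was found for 62 members, and its start was within 10 bp of the GENCODE main start for 22, with a median offset of 29.5 bp. For the 61 of them with a promoter peak, the strongest peak lay upstream of the RefSeq start in 57 members in replicate 1 and 52 in replicate 2. Its median distance from that start was 60 and 46 bp. The same values were not computed for other coding genes, so they do not set the members apart.

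In most members the strongest peaks of the replicates lay within 40 bp of each other. The strongest peak had the same coordinates in both in 25 of 81 members (30.9%), against 33.8% of coding genes with a promoter peak in both, a share near that background. It was 20 bp apart in 40 members, and within 40 bp in 75. These 2 counts were not made over all coding genes, so they do not set the members apart. In 5 members a different peak led in each replicate. The peak of Rpl18 that led in replicate 1 (chr7:45717956-45718105) had a score of 135 there and 136 in replicate 2. In replicate 2 a peak 2720 bp away scored 143, against 132 for its counterpart in replicate 1. That peak (chr7:45715236-45715385) lay 146 bp upstream of the main start of Rpl18. The others were Rplp2 (300 bp apart), Rpl19 and Rpl7 (260 bp each) and Rpl32 (200 bp), where neighbouring peaks had scores close to each other.

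Most members had more than 1 promoter peak. They had a mean of 2.94 promoter peaks in replicate 1 and 2.74 in replicate 2 (2.84 ± 0.138, SD, n = 2 replicates), against 1.82 and 1.58 for all coding genes, which include those with none. A promoter peak of replicate 1 that overlapped a peak of replicate 2 by at least 1 bp was counted as shared. Members had a mean of 2.23 shared promoter peaks, against 1.27 in all coding genes. Among genes with a promoter peak in both replicates the means were closer, 2.26 for members and 2.03 for all coding genes. By number, 22 members had 1 shared promoter peak, 30 had 2, 21 had 3 and 5 had 4, and 1 member each had 5, 6 and 7. Beyond the strongest peak there were 102 further shared promoter peaks in 59 members in replicate 1 and 103 in 60 members in replicate 2, with median scores of 54 and 65. Of these, 67 and 72 lay downstream of the main start and 35 and 31 upstream.

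Some of the further peaks belonged to distant annotated starts or to overlapping calls. Rps14 led with 7 shared promoter peaks, of which 5 lay more than 1000 bp from its main start, several of them at an annotated start far upstream that is close to Ndst1. Rpl3 followed with 6, of which 5 lay more than 1000 bp from its main start, 4 of these about an upstream start near Syngr1, and its own start held a single strong peak (137 and 142). Rpl11 had 5 shared promoter peaks, and Rpl13a and Rpl15 had 4 each. Counting only the main start of each gene, members had 2.63 and 2.50 promoter peaks, against 1.5 and 1.29 for all coding genes, and 81 of 82 members kept a promoter peak in both replicates, against 59.0% of coding genes. Merging the peaks of 1 list that overlap each other lowered the members' number of promoter peaks by 6.64% in replicate 1 and 7.11% in replicate 2, against 2.57% and 3.54% for all coding genes, and Rpl30 has 1 weak peak listed at the same position more than once in replicate 2.

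Hotspots gave the same picture over a wider stretch. A hotspot covered the main start in both replicates in 81 of 82 members, against 51.6% of all coding genes, and Rps27rt was again the exception. Each hotspot carries the −log10 of a q-value, deposited with a cap of 100. All 81 members were at the cap in both replicates, as were 92.6% and 93.2% of coding genes with a hotspot over the start, so this value does not order the members. The median width of the hotspot was 921 bp in replicate 1 and 1105 bp in replicate 2 for members (1013 ± 130.1 bp, SD, n = 2 replicates). It was 997 and 1268 bp for all coding genes (1132.5 ± 192 bp). Members had the lower median in both replicates. The gap between the means was within the spread between replicates, and both lists had wider hotspots in replicate 2.

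Open chromatin away from the promoter was unevenly spread over the members. A distal shared peak lay more than 1000 bp from any coding start and was given to the gene with the nearest coding start within 100 kb. Members had 215 of them, a mean of 2.62 and a median of 1 per gene, against a mean of 3.15 and a median of 1 for all coding genes. No distal shared peak was given to 21 members (25.6%), against 35% of all coding genes. Rpl11 and Rpl14 had 15 each, Rplp1 had 14, and Rpl34 and Rpl38 had 13 each. Rpl38, which in mice is needed for the translation of a subset of Hox mRNAs, is among these 5. Of the 215, 19, in 16 genes, lay inside the member's own gene body, and the median distance from the start was 11739 bp. The share inside the gene body was not computed for all coding genes. Members are short, with a median gene length of 3266 bp against 17380 bp for all coding genes, which leaves little room for such peaks. Nearest start is a rule of assignment, and the gene on which a distal site acts was not measured.

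The strongest promoter peak of replicate 1 was shared with a neighbour in 14 of the 81 members with a promoter peak in both (17.3%). Among coding genes with one in both the share was 18.0%, near that of the members. Neighbours were not sought for the strongest peak of replicate 2. In 13 of the 14 the neighbour was on the opposite strand (16.0%, against 16.5%). By rank the first 5 were Fau with the mitochondrial ribosomal protein gene Mrpl49 (starts 59 bp apart), Rpl15 with Nkiras1 (69 bp), Rpl18 with Sphk2 (69 bp), Rps27 with Rab13 (44 bp) and Rpl9 with Lias (53 bp). For Rpl18, a peak 2720 bp away from the shared one led in replicate 2. Mrpl49 encodes a protein of the mitochondrial ribosome, so the peak at Fau lies at the starts of genes for both ribosomes. Genes for mitochondrial ribosomal proteins shared their strongest peak of replicate 1 with an opposite-strand neighbour in 33 of 78 cases (42.3%). Their promoter peaks had median scores of 118 and 125 in replicates 1 and 2. The other TOP mRNA genes had median scores of 129 and 135.

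Member promoters held CpG counts near those of other open promoters. Within 500 bp of the main start they had a median of 67 CpG sites, with quartiles of 55.3 and 75.8, against a median of 43 and quartiles of 12 and 71 for all coding genes. Coding genes with a promoter peak in both replicates were closer, with a median of 61 and quartiles of 42 and 82. The lowest count, 24, was that of Rps27rt, and the highest, 90, included Rps6. Host genes of snoRNAs made up 30 of 82 members (36.6%), with 58 snoRNAs, against 1.17% of all coding genes. Their promoter scores were close to those of the others, with medians of 128 and 131.5 for members with a snoRNA and 127 and 133 for members without.

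Consensus words were searched on both strands from 250 bases before to 50 bases after the main start, in members and in all 21853 coding promoters of the same length. The ETS word CCGGAAG was present in 24 members (29.3%), 11.2% of all coding promoters and 16.5% of those with a promoter peak in both replicates. The palindrome bound by ZBED1, shown in capitals above, was present in 7 members (8.54%), 0.609% of all coding promoters and 0.926% of those with a promoter peak in both. The YY1 word AAGATGGC was present in 7 members (8.54%), 3.07% of all coding promoters and 4.26% of those with a promoter peak in both. With 82 members, the exact Clopper-Pearson 95% interval was 19.7% to 40.4% for ETS, and 3.50% to 16.8% for both ZBED1 and YY1. These intervals cover counting error only. That of YY1 includes the 4.26% of coding promoters with a promoter peak in both.

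The remaining words were nearer to the other coding promoters. The SP1 word GGGCGG was present in 52.4% of members, 45.4% of all coding promoters and 63.0% of those with a promoter peak in both. The NFY word CCAAT was present in 29.3% of members, 38.6% of all and 37.7% of those with a promoter peak in both. The TATA word TATAAA was present in 12.2%, 12.6% and 7.18%, in the same order, the E-box CACGTG in 11.0%, 7.71% and 9.71%, and the RUNX word TGTGGT in 13.4%, 14.9% and 12.4%. The NRF1 palindrome was present in 2 members (2.44%), 1.21% of all and 1.87% of those with a promoter peak in both. Matches of different words overlapped in 2 members, SP1 with NFY at Rpl10 and ETS with SP1 at Rpl8. A match is a stretch of letters, and binding of a factor was not measured.

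**Figure D4:**
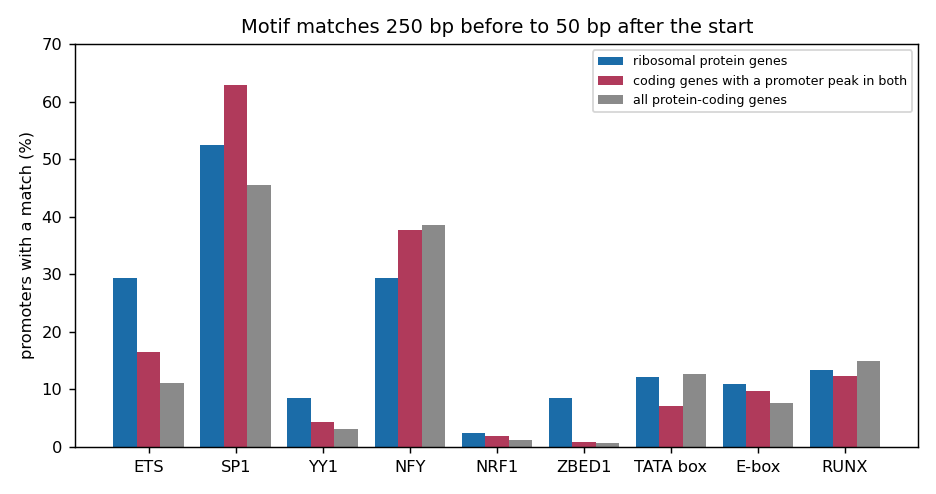
Share of promoters (%) with a match to each of 9 consensus words, for the ribosomal protein genes, coding genes with a promoter peak in both replicates and all protein-coding genes. For ETS the bars are 29.3%, 16.5% and 11.2%, and for ZBED1 8.54%, 0.926% and 0.609%. For SP1 they are 52.4%, 63.0% and 45.4%, and for NFY 29.3%, 37.7% and 38.6%.

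Matches of the ZBED1 and ETS words in members fell mostly inside the strongest promoter peak. That peak covered a start in 75.3% and 77.8% of members in replicates 1 and 2. The same shares were not computed for other coding promoters, so the counts below do not set these words apart. The 7 members with the ZBED1 palindrome included Rpl10a, Rpl17, Rpl26, Rpl4, Rps28 and Rps6, named after their values were seen. The match lay inside the strongest promoter peak of both replicates in 6 of 7, and the exception was Rpl4, where it lay 243 bases before the start. Its median position was 34 bases before the start, and it began 6 bases before the start in Rps6 and Rpl17. The ETS word had 31 matches in its 24 members, at a median of 27 bases before the start. Of these, 25 lay inside the strongest peak in replicate 1 and 23 in replicate 2. The 31 count overlapping matches on opposite strands of Rps14 separately. The YY1 word lay at a median of 21 bases after the start, and 2 and 3 of its 7 matches were inside the strongest peak. Members with and without these words had promoter peaks of similar strength. The median of the mean rank was 97.6 with and 97.4 without ETS, and 97.5 with and without ZBED1 and YY1.

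GENCODE main starts of the members held C and long pyrimidine runs more often than those of all coding genes. Most of these starts were not a pyrimidine. Of 62 members with a RefSeq start, only 22 had it within 10 bp of the GENCODE start (median offset 29.5 bp). The values below hold for the GENCODE starts alone. The base at the main start was C in 27 members (32.9%), against 17.5% of all coding genes, and T in 4 (4.88%), against 11.1%. The commonest base was G, in 33 members (40.2%), against 39.2% of all coding genes, and 18 members had A. The median length of the C or T run that holds the start was 0 in members and in all coding genes. A run of at least 10 C or T bases held the start itself in 7 members (8.54%), against 2.30% of all coding genes. These were Rps24 (19 bases), Rpl32 (17), Rpl22 (15), Rpl4 (14), Rpl31 and Rpl37a (13 each) and Rpl37 (11). Within 50 bases of the start the longest C or T run had a median of 8.5 bases in members and 6 in all coding genes, and it reached 10 bases in 32 members (39.0%), against 17.6% of all coding genes. This last measure was added after the data were seen. In Rps24 and Rpl31, shown above, the strongest promoter peak of both replicates covered the whole run, and in Rpl4 the strongest peak lay outside the stretch shown.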

How the data were processed

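DNase-seq peaks and hotspots of 2 replicates of newborn mouse thymus were used. Each deposited peak has a score, a whole number between 1 and 150 of unstated meaning, and each deposited hotspot has a q-value written as −log10, between 1.30 and a cap of 100. The authors called both on mm10 for each replicate alone, per the file descriptions deposited with them. The sources used here name no caller, aligner, threshold or depth. An SD with n = 2 measures only how far these samples differ, which may be partly technical. A score with an upper limit compresses differences among strong peaks.

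Starts were those of coding transcripts in GENCODE M21 on the main chromosomes of GRCm38. The main start was that of the transcript best by APPRIS tag, support level and length. The promoter window was 1000 bp, overlap at least 1 bp, and the distal limit 100 kb. Coordinates count from 1. Words were searched in the GRCm38 sequence, and the 62 RefSeq promoters matched by symbol were equal to it. Members on chromosome 18 are given without coordinates or sequence. Of 19 TOP genes listed, Gas5 and Snhg1 are not protein-coding and were left out. A few genes that these rules name are not reported here. No test was made. The steps were tested on simulated lists.

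Members, lists and words were chosen with earlier results of these data known. The rule for named genes took members without a promoter peak, the 10 highest and 10 lowest by mean rank, and the 5 with the most shared promoter peaks, farthest peaks, largest rank differences and most distal peaks. It also took the first 5 with a shared promoter, a fixed set of known genes, the paralogs and 5 pseudogenes. Tables were made with pandas 2.3.3 and numpy 2.4.6 under Python 3.11.15, intervals with scipy 1.17.1, and plots with matplotlib 3.10.9.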

Additional observations from a re-analysis of the deposited data

How the results depend on the processing

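Of 89 alternatives over the reported values, 68 stayed within their limit and 21 moved. The limit was the spread between replicates, 1.5 times for a count, or the interval of a share. A single replicate always lies within the SD around the mean of 2, so such settings of score, number and distance could not move. For shared and distal peaks each list counted nearly the same overlapping peaks, so the spread was very small, and CpG had none. Almost any change there counted as moved, and the tally does not measure robustness. A promoter peak in both replicates was found in 79 to 81 of 82 members under the settings that kept all members. Each single list gave 81. Without Rps19bp1, Rpl7l1 and Rpl22l1 the count was 78, and Rps27rt was the only remaining member that lacked a promoter peak. The mean number of promoter peaks, 2.84, became 2.10 with a window of 500 bp, 3.42 with 2500 bp, 2.01 with the stronger 50% of peaks and 2.50 at the gene start alone. Alternatives chosen after seeing the data gave 2.57 at the main start alone and 2.65 with overlapping peaks merged. Shared promoter peaks, 2.23, became 2.05 with a reciprocal overlap of 50% and 2.02 at the main start alone. The distance of 43.5 bp became 48.5 bp at the gene start and 53 bp with RefSeq starts (chosen after seeing the data). Distal shared peaks, 2.62, became 1.87 with the stronger 50% of peaks, 2.32 with a limit of 50 kb and 2.68 without Rps19bp1, Rpl7l1 and Rpl22l1. A single list, counted without the other replicate, gave 3.35 to 3.62. The CpG median of 67 became 64 at the gene start. Of 36 alternatives for the word shares, 31 stayed within the interval. On the sense strand alone SP1 fell to 26.8% and RUNX to 4.88%. From 100 bases before to 50 after the start, NFY was at 19.5% against 24.0% of all coding promoters, and RUNX at 4.88% against 7.56%. There E-box turned to 3.66% against 4.70%, while TATA became 12.2% against 7.05%. With RefSeq promoters E-box was at 8.06% against 8.05%. The cause was not tested, but a smaller window, fewer peaks or 1 strand can only lower a count. No paired analysis was possible because there is only 1 group. Unknown depth limits how firmly a missing or weak peak can be read.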

Other observations

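The 4 X-linked members, Rpl10, Rpl36a, Rpl39 and Rps4x, had promoter peaks with median scores of 117 in replicate 1 and 117.5 in replicate 2, against 128 and 132 for the 77 autosomal members. Among all coding genes with a promoter peak in both replicates, X-linked genes had medians of 100 and 102, against 115 and 121 for autosomal genes. The X-linked members had a median of 45.5 CpG sites within 500 bp of the start and the autosomal members 69. The libraries pool males and females. The part of copy number, CpG content or any other property in this gap was not tested, and the members were grouped by chromosome after their values were seen.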
